A study of Mus musculus with 2 samples.

Results

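The miRNA genes typified by the repeats in an intron of Sfmbt2 were examined in the embryonic facial prominence of the mouse. They were chosen by name: every counted gene whose symbol starts with Mir297, Mir466, Mir467 or Mir669 in the GENCODE M21 annotation, which gave 69 of the 1973 counted miRNA genes. Of these, 59 lie inside Sfmbt2 on its strand and 10 lie elsewhere in the genome. The rule itself uses names and positions, not read counts.

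Small RNA was sequenced from healthy B6NCrl embryos at 15.5 days, with both sexes pooled and no treatment or altered gene named in the labels. The 2 libraries form a single group, in which replicate 1 pooled tissue of 78 embryos and replicate 2 that of 62. Each pool mixes all cell types of the prominence, so fewer cells of a type and less miRNA per cell cannot be told apart. Reads assigned to miRNA genes numbered 2978463 in replicate 1 and 6408008 in replicate 2, and reads that mapped to several places made up 30.6% and 29.7% of all reads.

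MicroRNAs are cut from hairpin transcripts by Drosha and Dicer and guide Argonaute to messenger RNAs, mainly through the seed near their 5′ end. Sfmbt2 encodes a Polycomb group protein and is known as an imprinted gene of extraembryonic tissue and placenta. One of its introns carries a large cluster of related hairpins that is known from mouse and rat and is linked to placental development. The hairpins are rich in alternating UG and CA bases, and many are close copies of each other.

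Of the members, 9 outside Sfmbt2 have an entry in the RefSeq table used for sequences (GRCm38.p6), and 8 of them have a mature sequence there. These 8, all with 0 reads in both libraries, are shown because 6 of them display runs of UG or AC pairs, and 3 mature miRNAs of other genes are shown because they hold the same repeat and had reads. Capitals mark the seed, bases 2 to 8.
miR-466k: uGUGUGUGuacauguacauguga
miR-466j: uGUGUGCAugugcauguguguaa
miR-466q: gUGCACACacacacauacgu
miR-466i-3p: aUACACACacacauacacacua
miR-467f: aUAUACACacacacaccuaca
miR-467g: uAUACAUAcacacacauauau
miR-467h: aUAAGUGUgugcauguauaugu
miR-669n: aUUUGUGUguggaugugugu
miR-574-5p: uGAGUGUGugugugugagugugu
miR-672-5p: uGAGGUUGguguacuguguguga
miR-32-3p: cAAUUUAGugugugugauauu

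The counts that follow describe these 8 members outside Sfmbt2 and not the detected ones. The 8 were 20 to 23 bases long and had 8 different seeds. Of those seeds, only that of miR-467h occurred in another mature sequence of the table, miR-668-5p. A run of 4 UG pairs was held by 2 of the 8, against 7 of 1738 mature miRNAs in the table (0.403%). A run of 4 AC pairs was held by 4 of the 8, against 4 of the 1738 (0.230%), so all 4 AC runs in the table belonged to these members. No member inside Sfmbt2 has an entry in that table. The shares over the 1738 and the search for shared seeds therefore leave those members out. Runs were read on the mature strand only, and the UG and AC runs did not occur together in any of the 8.

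All reads assigned to the family were counted at hairpins inside Sfmbt2. Those 59 genes had 16473 reads in replicate 1 and 36993 in replicate 2. The 10 genes elsewhere had 0 reads in both libraries. A count of 0 allows up to 3 reads, which correspond to 1.00 CPM (assigned reads scaled to a common library size with TMM factors) in replicate 1 and 0.470 CPM in replicate 2. The summed reads inside Sfmbt2 were therefore at least 5491-fold higher in replicate 1 and at least 12331-fold higher in replicate 2 than 3 reads summed over the genes elsewhere, with 59 genes on one side and 10 on the other. These bounds and all intervals cover counting error only. Reads with several mapping places are given no gene and are outside them.

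Inside Sfmbt2 the sum over members was 5504 CPM in replicate 1 and 5801 CPM in replicate 2, or 5652 ± 210 CPM (SD, n = 2). They made up 0.553% of assigned reads in replicate 1 (95% Clopper-Pearson interval 0.545 to 0.562) and 0.577% in replicate 2 (0.571 to 0.583). Every one of these reads lay on the strand of the gene, and 0 lay on the opposite strand in either library. Over all counted genes 96.7% of reads in replicate 1 and 96.6% in replicate 2 lay on the strand of the gene. Only 14 genes had at least 10 reads on the opposite strand in each library. The Mir302, Mir290 and X-linked clusters described below also had 0 such reads, so this trait is not particular to the family.

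Few of the members carried these reads. Genes that reached 10 reads in both libraries were called detected, and those with no more than 3 reads in either library were placed at the floor. Of the 59 members inside Sfmbt2, 9 were detected, 5 had intermediate counts and 45 were at the floor, 39 of them with no read in either library. All 10 members elsewhere were at the floor. The 9 detected genes are 13.0% of the 69, and 16.9% of all 1973 counted genes were detected. The 55 members at the floor are 79.7% of the family, and 74.2% of all counted genes were at the floor. The detected genes held 99.86% of the family's reads in each library, and the 3 most abundant held 83.1% in each.

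**Figure D1:**
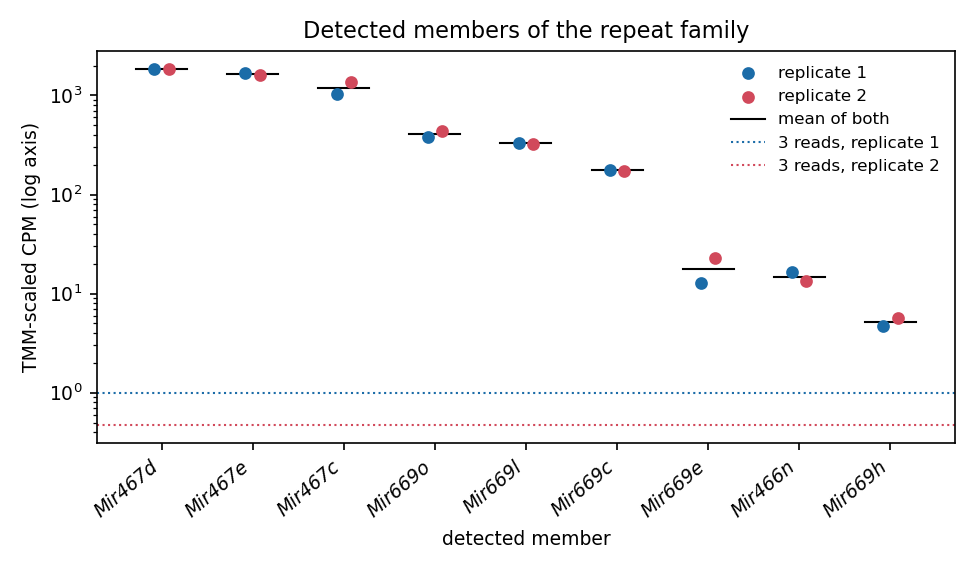
TMM-scaled CPM (log axis) of the 9 detected members in replicate 1 and replicate 2, with a black line at the mean of both and dotted lines at the level of 3 reads in each library. The 3 Mir467 genes stand between 1030 and 1867 CPM, and the lowest detected member, Mir669h, near 5 CPM.

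The Mir467 genes dominated the assigned reads of the family. They held 83.2% of these reads in replicate 1 (95% Clopper-Pearson interval 82.6 to 83.7) and 83.1% in replicate 2 (82.7 to 83.5). Reads with several mapping places are not counted, so the name groups are ranked here by assigned reads only. Mir467d, at chromosome 2, 10507630 to 10507714 on mm10, had 5561 reads or 1858 CPM in replicate 1 and 11907 reads or 1867 CPM in replicate 2. It was the most abundant member in both libraries, with a mean of 1863 ± 6.43 CPM (SD, n = 2) and rank 78 among all counted genes. Mir467e, its upstream neighbour among the detected genes at 10505721 to 10505807, had 5048 reads or 1687 CPM in replicate 1 and 10153 reads or 1592 CPM in replicate 2. Mir467c, at 10473931 to 10474027, had 3084 reads or 1030 CPM in replicate 1 and 8676 reads or 1361 CPM in replicate 2. The order Mir467d, Mir467e, Mir467c was the same in both libraries, and each step exceeded the SD of either neighbour. Mir467d stood 1.80-fold above Mir467c in replicate 1 and 1.37-fold above it in replicate 2.

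Of the other Mir467 genes inside Sfmbt2, Mir467b had 6 reads in replicate 1 and 5 in replicate 2, and the 10 copies of Mir467a had 1 read between them. The 3 Mir467 genes elsewhere, Mir467f, Mir467g and Mir467h, had none.

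The Mir669 genes came second, with 906 CPM in replicate 1 and 961 CPM in replicate 2, and held 16.5% and 16.6% of the family's reads. They had the most detected members, 5 of 21. Mir669o (10514300 to 10514395) had 1136 reads or 379.6 CPM in replicate 1 and 2761 reads or 433 CPM in replicate 2. Mir669l (10468971 to 10469068) had 990 reads or 331 CPM in replicate 1 and 2077 reads or 326 CPM in replicate 2. Mir669c (10509296 to 10509404) had 530 reads or 177 CPM in replicate 1 and 1101 reads or 173 CPM in replicate 2. These 3 genes kept their order in both libraries, with steps larger than the SD of either neighbour.

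The remaining detected Mir669 genes were far lower. Mir669e (10467495 to 10467613) had 38 reads or 12.7 CPM in replicate 1 and 146 reads or 22.9 CPM in replicate 2. Mir669h (10518155 to 10518279) had 14 reads or 4.68 CPM in replicate 1 and 36 reads or 5.65 CPM in replicate 2. Between Mir669c and Mir669e the level dropped 13.9-fold in replicate 1 and 7.54-fold in replicate 2. This was the widest gap in either library among neighbours in the order of the 9 genes by mean CPM. In replicate 1 Mir466n, at 16.4 CPM, stood between Mir669c and Mir669e. Mir669h was 397-fold below Mir467d in replicate 1 and 331-fold below it in replicate 2.

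Mir466 and Mir297 genes held few of the assigned reads. Of 25 counted Mir466 genes, the most numerous of the 4 name groups, only Mir466n was detected. It lies at 10513741 to 10513834 and had 49 reads or 16.4 CPM in replicate 1 and 85 reads or 13.3 CPM in replicate 2. Its mean of 14.9 ± 2.15 CPM was below that of Mir669e, 17.8 ± 7.21 CPM (SD, n = 2), but the difference of 2.95 CPM was smaller than the SD of Mir669e and the order was opposite in the replicates. All 6 Mir297 genes together had 9 reads in replicate 1 and 18 in replicate 2.

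Around the minimum of 10 reads, ranked by the smaller of the 2 counts, Mir669h (14 and 36 reads), Mir669e (38 and 146) and Mir466n (49 and 85) lay just inside. Just outside lay Mir297a-2 with 9 and 17 reads, Mir669f with 5 and 10, and Mir467b with 6 and 5. The other undetected members with more than 3 reads in a library were Mir466b-3 and Mir466l, with 0 reads in replicate 1 and 5 and 4 in replicate 2.

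The detected members lie on both sides of the middle of the cluster and none within it. All 59 members fall within 1 intron of Sfmbt2, at chromosome 2, 10461473 to 10523944, which is intron 10 or 11 depending on the transcript, and 0 of them overlap an exon. Sfmbt2 itself spans 10370510 to 10595253. The members run from 10466663 to 10518279, a stretch of 51617 bases. The 10 copies of Mir467a, spaced by a median of 2462 bases, mark an array from 10476346 to 10503355 in its middle. Of 15 members upstream of this array 3 were detected, with a summed level of 1379 CPM in replicate 1 and 1714 CPM in replicate 2. Of 23 members within the array 0 were detected, and they had 6 reads in each library, of which Mir467b had 6 and 5. Of 21 members downstream 6 were detected, with a sum of 4123 CPM in replicate 1 and 4086 CPM in replicate 2. The division at the Mir467a copies was chosen after the values were seen and has no test.

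**Figure D2:**
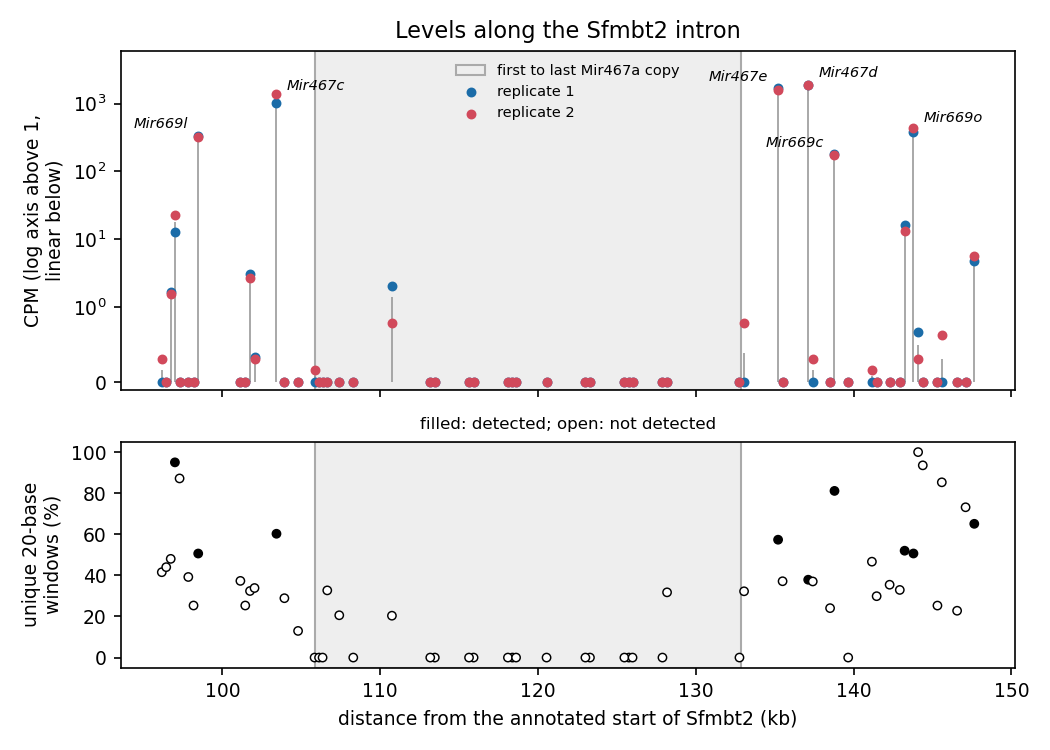
Upper panel, CPM in replicate 1 and replicate 2 (log axis above 1 CPM, linear below) of the 59 members inside Sfmbt2 against their distance in kb from the annotated start of the gene, with lines to the mean. Lower panel, percentage of each hairpin's 20-base windows found in no other annotated hairpin. Filled circles are detected members. The shaded span from the first to the last Mir467a copy holds 23 members, of which 0 were detected.

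The deposited counts give no gene to a read with several mapping places, so a hairpin with identical copies can be counted only where its sequence differs from them. Each hairpin was therefore divided into windows of 20 bases, and the percentage of windows found in no other miRNA hairpin of GENCODE M21, on either strand, was taken as its uniqueness. Copies outside the annotated hairpins were not searched. At least 1 shared window was present in 67 of the 69 members, against 929 of the 1894 counted genes with a hairpin sequence. The exceptions were Mir466g inside Sfmbt2 (2 reads in each library) and Mir669n elsewhere (0 reads). All 9 detected genes share windows with other hairpins, so their values are uncertain.

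Uniqueness was higher in the detected members than in the rest of the cluster. The 9 detected genes had a median of 57.4% unique windows (range 37.9 to 95%), and the 50 undetected members inside Sfmbt2 a median of 24.7% (range 0 to 100%), so the ranges overlapped. The 23 members within the Mir467a array had a median of 0% and a maximum of 32.7%. Of 20 members with no unique window, 19 had no read in either library and Mir467a-1 had 1 read in replicate 2. Mir467d was detected with 37.9% unique windows, fewer than any other detected member. Of the 554 counted genes with under 50% unique windows, 2 were detected, and Mir467d was 1 of them. Among all counted genes, 8.07% of the 929 that share a window were detected, against 26.7% of the 965 with a sequence that share none.

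The same measure was higher for the members elsewhere, which had a median of 70.0% unique windows (range 35.1 to 100%) and no reads. With at least 50% unique windows, 8 of 13 members inside Sfmbt2 were detected and 0 of 8 elsewhere. For scale, 16.9% of all counted genes were detected, and 26.7% of those that share no window. The 2 counts are small and their difference was not tested. The members elsewhere also had longer simple repeats. The longest run of TG or CA pairs had a median of 12 bases elsewhere and 8 bases inside Sfmbt2, with maxima of 26 and 14 bases. Annotated hairpins were longer elsewhere too, with a median of 120.5 bases against 90 inside Sfmbt2. Neither the runs nor the unique windows were adjusted for length. Of the 10, only Mir466q lies in another gene on its strand, an intron of Tnik. The part of sequence copies in these counts was not tested beyond these values, and nothing here is read as absence of the transcripts.

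**Figure D3:**
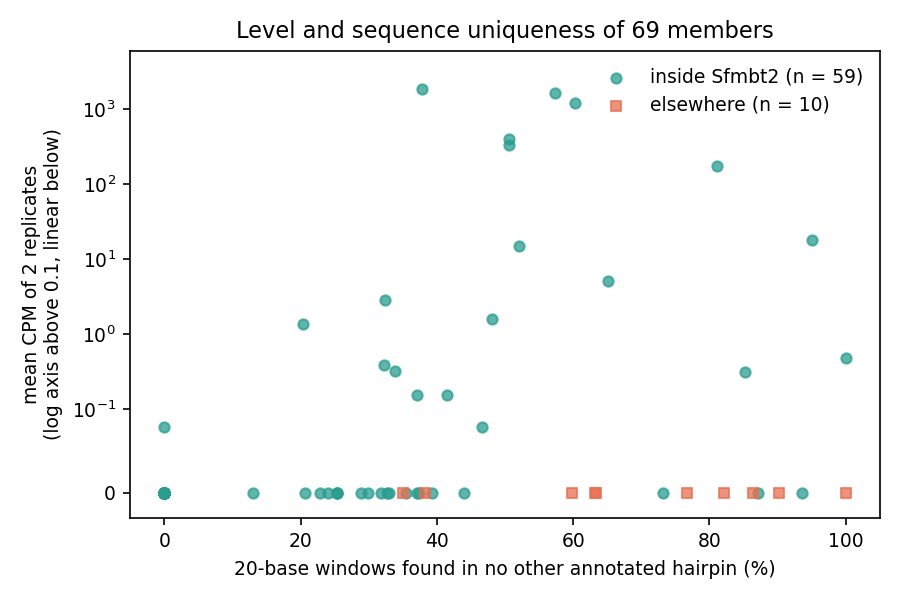
Mean CPM of the 2 replicates (log axis above 0.1 CPM, linear below) against the percentage of 20-base windows found in no other annotated hairpin, for 59 members inside Sfmbt2 and 10 elsewhere. The 10 members elsewhere all sit at 0 CPM, from 35.1% to 100% on the horizontal axis.

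The intron also holds 48 counted genes with Gm names that are not members, and 46 of them share a 20-base window with a member. They had 4 reads in replicate 1 and 18 in replicate 2, 0 were detected, and their median uniqueness was 11.1%. A further 12 genes of GENCODE M21 with family symbols, all inside Sfmbt2, are not among the counted genes and were not analysed here. They are 9 copies of Mir669a and 3 Mir466 genes.

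The replicates were then compared gene by gene, which shows how far 2 pools of the same tissue differ. The family's summed level had a log2 ratio of replicate 2 over replicate 1 of 0.08 (95% counting interval 0.05 to 0.10). With all reads of the library as the total it was −0.10 (−0.13 to −0.08), so its direction depends on the scaling. Of the 9 detected members, 3 had more in replicate 2, 1 had more in replicate 1 and 5 were not called by the two-sided exact binomial test with Benjamini-Hochberg adjustment over all 333 tested genes. That is 4 of 9, against 53.5% called over all tested genes, with 25.8% higher in replicate 2 and 27.6% higher in replicate 1. The median log2 ratio of the 9 was 0.01, and that of all tested genes was −0.01. The test sets a single library against a single library, so it covers counting error only. The smallest p of a one-sided exact permutation test of this design is 0.5.

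Mir467c was 1.32-fold higher in replicate 2 (log2 ratio 0.40, 95% interval 0.34 to 0.46, exact binomial adjusted p = 7.82e-41). Mir467e was lower in replicate 2 by a small amount (log2 ratio −0.08, −0.13 to −0.03, exact binomial adjusted p = 0.00191). Mir467d had a log2 ratio of 0.01 (−0.04 to 0.05) and was not called. The share of family reads from Mir467c was 18.7% in replicate 1 and 23.5% in replicate 2, while that of Mir467e was 30.6% and 27.4%.

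Among the Mir669 genes, Mir669e was 1.80-fold higher in replicate 2 (log2 ratio 0.85, 0.33 to 1.41, exact binomial adjusted p = 0.00192), on 38 and 146 reads. Mir669o was 1.14-fold higher in replicate 2 (log2 ratio 0.19, 0.09 to 0.29, exact binomial adjusted p = 0.00044). With all reads of the library as the total, the ratio of Mir669o was 0.01 and it was no longer called (exact binomial adjusted p = 0.867). Mir669l had a log2 ratio of −0.02 (−0.13 to 0.09), Mir669c of −0.04 (−0.19 to 0.12) and Mir669h of 0.27 (−0.65 to 1.28), none of them called. Mir466n had a ratio of −0.30 (−0.82 to 0.24) and was not called.

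With all reads of the library as the total, 2 members were higher in replicate 2 and 4 in replicate 1, and over all tested genes the split was 49 and 160 in place of 86 and 92. That total moved the median log2 ratio of all tested genes by −0.18. Assigned reads were 50.99% of all reads in replicate 1 and 45.5% in replicate 2.

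**Figure D4:**
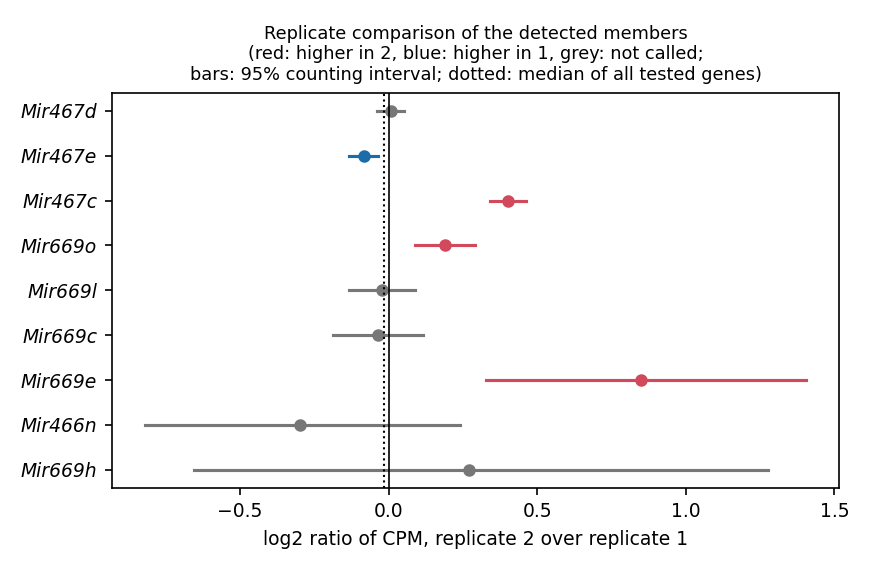
Log2 ratios between the replicates (replicate 2 divided by replicate 1, TMM-scaled CPM) for the 9 detected members, with 95% counting intervals. Red marks 3 genes called higher in replicate 2, blue 1 gene called higher in replicate 1 and grey 5 genes not called, and the dotted line is the median of all tested genes at −0.01.

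By position, the summed ratio was 0.31 (95% counting interval 0.26 to 0.37) for the members upstream of the Mir467a array and −0.01 (−0.04 to 0.02) for those downstream. Mir467c and Mir669e, both called higher in replicate 2, are upstream, while Mir669l, also upstream, was not called. Mir669o, the other member called higher in replicate 2, is downstream, as is Mir467e. Mir467c supplied 3084 of the 4127 upstream reads in replicate 1 and 8676 of 10930 in replicate 2. The difference between the members upstream and downstream of the array was not tested.

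Lists of other miRNA genes give a scale for these levels. Of 5 counted genes outside the family whose mature sequence holds 4 UG pairs in a row, 3 were detected: Mir672 at 180 ± 5.33 CPM, Mir574 at 149 ± 19.8 CPM and Mir32 at 141 ± 17.3 CPM (SD, n = 2). The sequences above show the arm with the repeat, but the counts do not separate the arms of a hairpin. Mir574 and Mir32 were higher in replicate 1 (log2 ratios −0.27 and −0.25, exact binomial adjusted p = 0.00211 and 0.00696), and Mir672 was not called (−0.06). All 3 had 100% unique windows. Mir3082, also with 100%, and Mir1187, with 67.0%, had 0 reads.

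Clusters known from early embryonic cells or from rodents had smaller sums than the 59 members inside Sfmbt2. These sums cover unequal numbers of genes. Inside Sfmbt2 9 of the 59 were detected, and the 3 most abundant held 83.1% of the family's reads in each library. The Mir302 cluster, known from pluripotent cells, summed to 121 ± 16.0 CPM, with 4 of 5 genes detected. Mir302a stood at 43.3 ± 8.81 CPM and Mir302d at 41.8 ± 3.39 CPM, a difference below the SD of Mir302a, and Mir302d was the higher of these in replicate 1. Mir302b stood at 31.3 ± 5.58 CPM and Mir302c at 4.41 ± 1.80 CPM. Of these, Mir302a was called higher in replicate 2 (log2 ratio 0.42, exact binomial adjusted p = 0.0156) and the other 3 were not called. The 7 counted genes of the Mir290 cluster, known from embryonic stem cells and placenta, summed to 7.49 ± 1.61 CPM with 0 detected, and its highest were Mir293 (6 and 26 reads), Mir294 (9 and 18), Mir292 (3 and 7) and Mir291a (1 and 3). The 19 counted genes of the X-linked rodent cluster summed to 8.57 ± 3.62 CPM (all SD, n = 2), with 0 detected. Its highest were Mir741 (7 and 36 reads), Mir547 (5 and 11), Mir201 (2 and 9) and Mir871 (0 and 8). In these 3 clusters the median gene had 100% unique windows, unlike the members inside Sfmbt2 at 29.9%.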

How the data were processed

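The authors deposited unnormalized counts of reads, 1 table for each of 2 microRNA sequencing libraries, made from a mm10 alignment with GENCODE M4, per the deposited file list. Which aligner and counter were used is not given in the sources used here. Each gene has 3 counts (either strand, its own strand, the opposite strand), and the first was used. Reads that were unmapped, mapped to several places or lay outside annotated genes are separate lines and stayed out of library sizes. They made up 49.0% of all reads in replicate 1 and 54.5% in replicate 2.

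Symbols and positions (1-based) came from GENCODE M21 on the same build, matched by identifier without version, for 1894 of 1973 genes. Counts were scaled with TMM factors over all counted genes (edgeR 4.0.16, R 4.3.3). Genes with at least 10 reads in each library were tested with a two-sided exact binomial test that takes TMM-scaled library sizes as the null, and p-values were Benjamini-Hochberg adjusted (threshold 0.05). The test was checked on simulated counts with Poisson error and no variation between pools. That check therefore does not cover differences between pools. Intervals for shares are exact Clopper-Pearson at 95%. Hairpin sequences for the window measure came from GENCODE M21 transcripts, and printed sequences from RefSeq.

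Named genes were all detected members, the undetected members with more than 3 reads in a library, 3 members on each side of the 10-read minimum, and up to 4 genes of each other list. The members, lists and rules were chosen with earlier results of these data known. Alternatives were total-count scaling, DESeq2 1.42.0 size factors, all reads as the total, Mir203 left out, other strand columns, other minimums, each replicate left out, either-strand overlap with Sfmbt2 and members with shared windows left out. TMM factors from detected genes and windows of 16 or 24 bases were added after seeing the data. Software was scipy 1.17.1, pandas 2.3.3 and matplotlib 3.10.9 under Python 3.11.15.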

Additional observations from a re-analysis of the deposited data

Results flagged for a closer look

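Reads above the limit that a count of 0 allows appeared at 2 counted genes of the same intron that are not members. Gm22925, at chromosome 2, 10510791 to 10510892, had 2 reads in replicate 1 and 7 in replicate 2, and 83.1% of its 20-base windows were unique. Gm25263, at 10509885 to 10509984, had 2 reads in replicate 1 and 4 in replicate 2, with 86.4% unique windows.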

How the results depend on the processing

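The 10 members elsewhere had 0 reads on either strand in both libraries, so no alternative could move them from 0. The family sum, equal to the sum inside Sfmbt2, was 6138 CPM once Mir203 was removed from the totals, 2723 CPM with all reads as the total, 0 CPM on the opposite strand and 0.491 CPM without the members that share 20 bases. Leaving out a replicate gave 5504 to 5801 CPM and 9 to 11 detected members. On the opposite strand 0 members were detected or called, and of 14 genes tested 9 were called, with 4 up in replicate 2 and 5 up in replicate 1. Without members that share 20 bases, 0 were detected or called, and 1 inside and 1 elsewhere were at the floor, because 2 members were left. With all reads as the total, 4 members were called higher in replicate 1, all called genes divided into 49 toward replicate 2 and 160 toward replicate 1, and the log2 ratio of Mir467d was −0.17 (exact binomial adjusted p = 1.21e-12, range over its alternatives 1.21e-12 to 1). Of 69 values of log2 ratios of single members over the alternatives, 65 stayed on their side of the threshold, with the direction kept where called. The other 4 all came from that total. Leaving out Mir203 or changing the filter on low counts leaves each ratio almost unchanged by design, so those values are weak checks. The log2 ratio of the family sum, an alternative set chosen after seeing the data, was −0.10 with all reads as the total and −1.09 (interval −4.88 to 2.69) without members that share 20 bases, where 2 reads in each library were left. No paired analysis was possible because there is 1 group. Depth limits the members near 10 reads, where Mir669h had a log2 ratio interval of −0.65 to 1.28.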
